A study of Mus musculus with 15 samples.

Results

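The 9 genes described here carry or read the Hedgehog signal in the developing mouse secondary palate. They are the ligand gene Shh, the receptor and co-receptor genes Ptch1, Hhip and Smo, the transcription factor genes Gli1, Gli2 and Gli3, and the forkhead genes Foxf1 and Foxf2. They were chosen by name, as pathway components and targets, and all 9 were found among the 54232 genes of the count table. Bulk RNA-seq was made from dissected palates of wild-type mice at 5 stages: the embryonic stages E13.5, E14.5, E15.5 and E16.5, named by days of gestation, and P0, the day of birth. Palates of 3 embryos were pooled for a library and 3 such libraries represent a stage, so 15 libraries were compared and no other genotype or treatment entered. The spread between pools hides the spread between embryos within them, and p-values measure only the spread between these pools.

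Shh protein is made by epithelial cells, in the palate along the oral side, and binds the receptor Ptch1 on neighbouring cells. Binding lifts the block that Ptch1 places on the membrane protein Smo, and Smo in turn controls whether the Gli proteins activate or repress their targets. Ptch1, Hhip and Gli1 are themselves classic targets of the pathway, and Foxf1 and Foxf2 are known to respond to Shh in palatal mesenchyme, where Foxf2 is needed for normal palate growth.

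All 9 genes are protein coding, and positions are given on GRCm38. Shh (ENSMUSG00000002633.4) lies at chr5:28456815-28467256 on the minus strand and Ptch1 (ENSMUSG00000021466.12) at chr13:63508328-63573598, also minus. Smo (ENSMUSG00000001761.7) is at chr6:29735503-29761365 on the plus strand and Hhip (ENSMUSG00000064325.4) at chr8:79965851-80058006 on the minus strand. Gli1 (ENSMUSG00000025407.7) is at chr10:127329882-127341974, minus, and Gli2 (ENSMUSG00000048402.14) at chr1:118834132-119053619, minus. Gli3 (ENSMUSG00000021318.15) is at chr13:15463235-15730026, plus. Foxf1 (ENSMUSG00000042812.5) is at chr8:121084386-121088144 and Foxf2 (ENSMUSG00000038402.2) at chr13:31625816-31631403, both plus. None shared an exon on its own strand with another gene in GENCODE M21, and the counting used strand.

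RefSeq promoter entries on build GRCm38.p6 were matched for 6 of the 9 genes: Ptch1, Hhip, Smo, Gli2, Gli3 and Foxf2. The 250 bases upstream of the RefSeq start are printed for the 4 genes whose level passed a test between stages (Smo, Gli2, Gli3 and Hhip). They run 5′ to 3′ on the gene's strand. Capitals mark the GC box, searched as GGGCGG on both strands (CCGCCC on the printed strand is its other orientation). The windows are chr6:29735247-29735496 on the plus strand for Smo, chr1:119053620-119053869 minus for Gli2, chr13:15463473-15463722 plus for Gli3 and chr8:80058009-80058258 minus for Hhip. The windows of Gli3 and of Ptch1 (chr13:63565736-63565985, minus) lie inside the gene positions given above, before a start within the gene.
Smo: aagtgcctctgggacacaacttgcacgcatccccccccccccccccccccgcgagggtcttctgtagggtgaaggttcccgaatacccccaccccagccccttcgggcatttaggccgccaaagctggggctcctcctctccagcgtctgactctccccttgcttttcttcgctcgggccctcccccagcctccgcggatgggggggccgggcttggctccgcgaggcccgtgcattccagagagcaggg
Gli2: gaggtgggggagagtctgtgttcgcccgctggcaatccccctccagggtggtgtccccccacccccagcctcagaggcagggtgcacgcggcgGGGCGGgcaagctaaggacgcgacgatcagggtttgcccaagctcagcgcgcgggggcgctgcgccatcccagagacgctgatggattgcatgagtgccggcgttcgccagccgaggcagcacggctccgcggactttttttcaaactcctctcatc
Gli3: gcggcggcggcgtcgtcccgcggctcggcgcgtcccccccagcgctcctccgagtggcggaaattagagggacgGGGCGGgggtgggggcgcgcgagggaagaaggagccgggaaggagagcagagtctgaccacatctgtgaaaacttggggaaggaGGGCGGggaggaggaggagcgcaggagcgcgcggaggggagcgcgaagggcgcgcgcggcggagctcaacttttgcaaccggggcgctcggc
Hhip: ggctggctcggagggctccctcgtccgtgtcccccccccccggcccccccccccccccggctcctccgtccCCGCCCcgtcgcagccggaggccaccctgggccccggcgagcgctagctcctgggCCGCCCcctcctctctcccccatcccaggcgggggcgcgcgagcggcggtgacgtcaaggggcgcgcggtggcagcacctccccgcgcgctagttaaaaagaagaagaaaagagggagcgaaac
A GC box was found in 5 of the 6 windows, all but that of Smo, and in 32.7% of all 32851 promoter windows of this length. The windows shown were rich in G and C, from 67.2% of bases for Gli2 to 76.0% for Hhip. The core of the Gli binding motif, GACCACCCA, was searched on both strands with up to 1 mismatch. It was in 0 of the 6 windows, against 0.225% of all windows for an exact match and 5.79% with 1 mismatch allowed. The absence of these letters covers this window only. For Gli3 and Ptch1 it does not cover the bases before the gene's outermost start.

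Library totals ranged from 21.5 M to 69.0 M counts with a median of 61.0 M, and P0 replicate 3 was the shallowest. With the detection floor set at 3 counts, its level was 0.0435 to 0.140 CPM (counts scaled to the library total), and the lowest value of any of the 9 genes was 31 counts. Markers of palatal mesenchyme (7 genes, among them Osr2, Pax9 and Msx1) summed to 116 to 443 CPM in every library, and those of epithelium (9 genes, among them Epcam and Krt14) to 293 to 2845 CPM. Markers of tooth enamel and dentine, a neighbouring site of Shh signalling, summed to 0.620 to 8.66 CPM over 5 genes. Being genes of enamel and dentine, they do not measure tooth germ tissue before these form. E14.5 replicates 1 and 3 held transcripts of choroid plexus, a brain tissue, at 1355 and 756 CPM over 6 genes, against 22.9 CPM in replicate 2, and the same markers held 487 and 222 CPM in P0 replicates 2 and 3, 118 CPM in E13.5 replicate 3 and 12.98 to 79.1 CPM in the remaining libraries. Trunk Hox genes (8 genes) summed to 399, 92.1 and 17.1 CPM in E14.5 replicates 1, 2 and 3, to 29.2 CPM in E13.5 replicate 1, to 25.6 CPM in E16.5 replicate 1 and to 14.8 CPM or less elsewhere. Counts of calls that rest on E14.5 were also computed without its replicates 1 and 3, which leaves replicate 2 with its own Hox transcripts. With both left out, 3 of the 9 genes passed over the 5 stages and 0 in either comparison with E14.5, the same counts as with them, where the lone E14.5 library was assumed to vary like those of the other stages. The calls of Smo, Gli2 and Gli3 from E13.5 to P0 held with each library of those stages left out singly.

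Over the 5 stages, 3 of the 9 genes changed, all towards lower levels: Gli3, Gli2 and Smo. Among all 22151 genes that passed the filter on low counts, 59.1% changed by the same test, edgeR's quasi-likelihood F test with Benjamini-Hochberg adjustment over those genes, and the share among these 9 lay below that. The adjusted p was 0.000469 for Gli3, 0.000513 for Gli2 and 0.0349 for Smo. It was 0.0721 for Hhip, 0.0740 for Foxf2, 0.406 for Shh, 0.551 for Gli1, 0.732 for Foxf1 and 0.798 for Ptch1. DESeq2 called 5 of the 9, adding Hhip and Foxf2, and so did the fit without P0 replicate 3, which added Hhip and Shh.

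**Figure D1:**
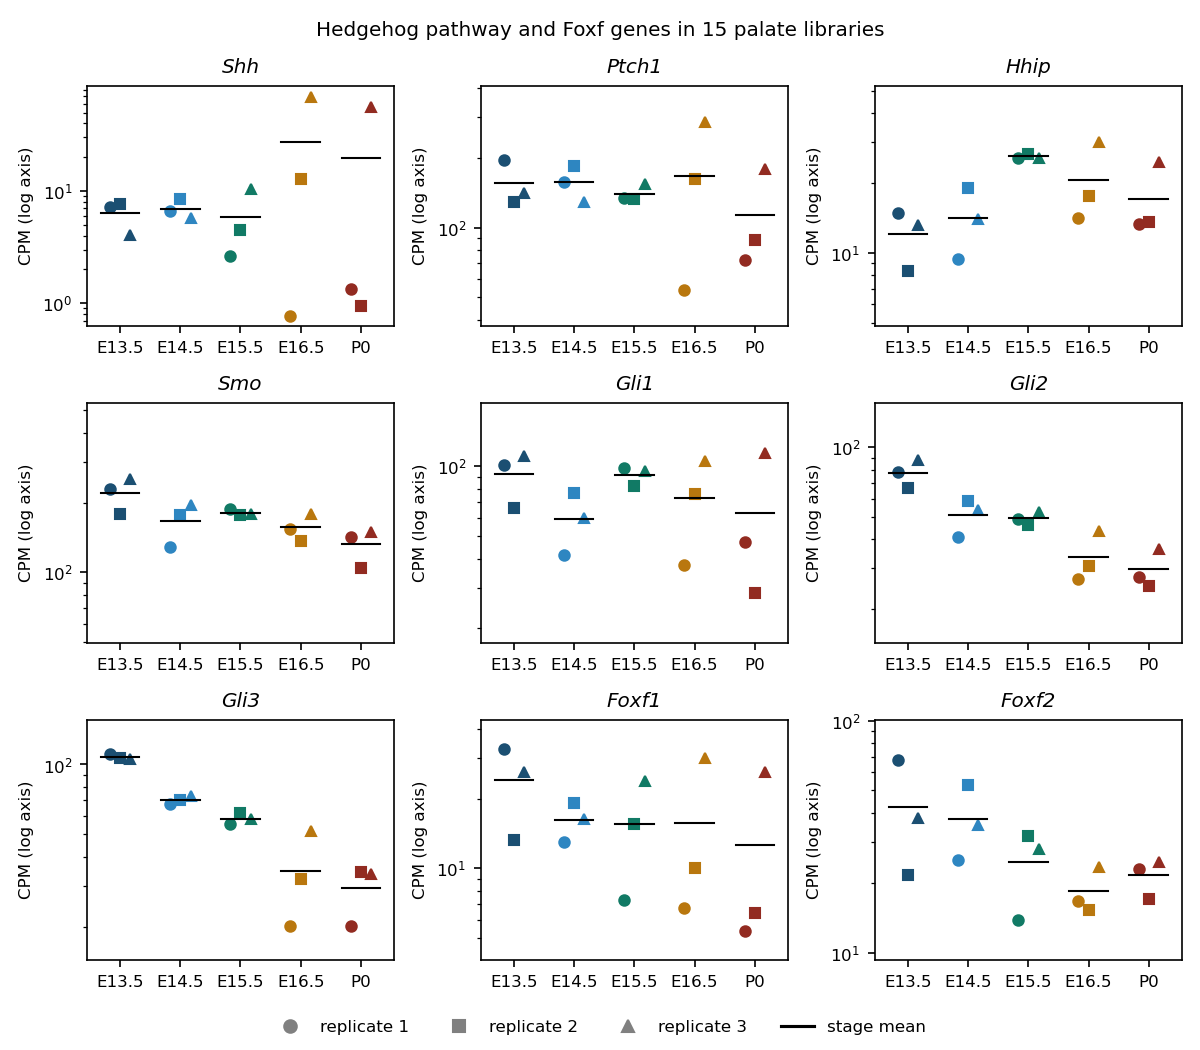
Level of each of the 9 genes in CPM (log axis) by stage, with 1 point per library (circle, square and triangle for replicates 1, 2 and 3) and a line at the stage mean. Gli2 and Gli3 step down from E13.5 to P0, while Shh spreads from 0.777 to 69.0 CPM within E16.5.

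Levels of different genes were compared as TPM, counts per length scaled to the same total in every library, which accounts for gene length. Averaged over the 15 libraries, Smo was highest at 105 TPM, followed by Gli1 at 52.8 TPM, Foxf2 at 42.8 TPM and Ptch1 at 35.6 TPM. Gli2 (24.6 TPM), Foxf1 (24.4 TPM) and Gli3 (22.2 TPM) lay close together, and Hhip was lowest at 6.75 TPM. Shh averaged 15.7 TPM, but its median was 8.19 TPM. The ratio of the highest to the lowest library in CPM was 88.8 for Shh, between 3.49 and 6.10 for Ptch1, Gli1, Gli2, Gli3, Hhip, Foxf1 and Foxf2, and 2.42 for Smo. In a bulk sample, fewer cells of a type and less RNA per cell cannot be told apart.

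Shh, the epithelial ligand, was low in the first stages and scattered most widely in the last ones. At E13.5 the 3 libraries held 7.19, 7.73 and 4.07 CPM, and at E14.5 they held 6.63, 8.50 and 5.74 CPM. At E15.5 the values were 2.63, 4.49 and 10.3 CPM. These 9 libraries overlapped between stages. The next stage spread out, with 0.777, 12.7 and 69.0 CPM at E16.5, and the P0 libraries held 1.33, 0.945 and 56.2 CPM. In both of these stages replicate 3 was the highest library and stood above all libraries of E13.5 to E15.5. Replicate 1 at E16.5 and replicates 1 and 2 at P0 stood below all libraries of E13.5 to E15.5. The highest library exceeded the lowest 88.8-fold at E16.5 and 59.5-fold at P0, against 1.90-fold at E13.5, 1.48-fold at E14.5 and 3.93-fold at E15.5. The share of tested genes with a smaller standard deviation (SD) of log2 CPM than Shh was 82.4%, 57.8% and 92.8% in the first 3 stages, and 99.7% in each of the last 2.

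With this spread no stage difference of Shh passed the test. From E13.5 to P0 its log2 fold change was 1.62 (SE 1.41, adjusted p = 0.341, edgeR), and leaving out single libraries moved it from -2.45, without P0 replicate 3, to 2.21. Its direction between those stages therefore turned when 1 library was left out. It also turned when the replicate number was added to the fit with all libraries kept. Markers of epithelium, the source of Shh, also differed between these pools. Summed over 9 genes they held 936, 1222 and 2051 CPM in E16.5 replicates 1, 2 and 3, and 1005, 1730 and 2845 CPM in those of P0. Krt5, a keratin of basal epithelium, held 177, 600 and 1216 CPM at E16.5 and 344, 493 and 1579 CPM at P0, while the general epithelial marker Epcam held 113, 58.8 and 70.4 CPM and 75.0, 138 and 150 CPM. Krt14 ran in the same order as Krt5, with 45.5, 183 and 328 CPM at E16.5 and 121, 182 and 472 CPM at P0. The epithelial keratins Krt8 and Krt18 did not follow that order. Krt8 held 262, 112 and 91.6 CPM at E16.5 and 197, 372 and 136 CPM at P0. Krt18 held 119.9, 68.5 and 54.6 CPM at E16.5 and 105, 157 and 126 CPM at P0. Skeletal muscle markers, summed over 5 genes, ran the other way at E16.5, from 21220 in replicate 1 to 10880 and 7643 CPM, and held 17440, 20870 and 3689 CPM at P0. Tooth markers, summed over 5 genes, held 2.03, 2.66 and 5.41 CPM at E16.5 and 7.32, 3.54 and 8.66 CPM at P0. They ran in the order of Shh within these stages and E15.5, and in the opposite order within E13.5 and E14.5. The part of tissue composition, tooth tissue included, in the spread of Shh was not tested. Epcam and Cdh1 themselves had r of 0.05 and 0.02 with Shh between pools. Divided by their sum, Shh spanned -8.27 to -1.31 on the log2 scale at E16.5 and -8.42 to -2.48 at P0. No difference of that ratio between stages passed (exact permutation test over 1401400 partitions, p = 0.828, 0.936 adjusted over 7 ratios).

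Ptch1, the receptor that Shh binds and a target of the pathway, kept a similar level through E15.5. The libraries held 195, 130 and 141 CPM at E13.5, 158, 185 and 129 CPM at E14.5, and 134, 133 and 154 CPM at E15.5. They held 53.5, 161 and 285 CPM at E16.5 and 72.1, 88.1 and 179 CPM at P0. The lowest and the highest library of all 15 both came from E16.5, replicates 1 and 3, the same that held the lowest and the highest Shh. All neighbouring stages overlapped, and the log2 fold change was -0.46 between E13.5 and P0 (adjusted p = 0.417, edgeR).

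Hhip, a membrane protein that binds Hedgehog ligands and limits their reach, was higher at E15.5 than in the earlier stages. The libraries held 14.9, 8.36 and 13.1 CPM at E13.5 and 9.42, 18.98 and 14.1 CPM at E14.5. At E15.5 they held 25.7, 26.8 and 25.7 CPM, above all 6 earlier libraries and within 1.04-fold of each other. The values were 14.2, 17.6 and 30.2 CPM at E16.5 and 13.3, 13.6 and 24.5 CPM at P0, and both of these ranges overlapped those of E13.5 or E14.5. From E13.5 to E15.5 Hhip rose 2.15-fold (log2 1.10, SE 0.34, adjusted p = 0.0365, edgeR), the only rise to pass among the 9 genes in the 6 stage comparisons. This call was lost with any single library of these stages left out (adjusted p 0.0586 to 0.146). From E14.5 to E15.5 its log2 fold change was 0.88 (adjusted p = 0.0755), and it passed in DESeq2 and in a fit of those 6 libraries alone.

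Smo, which carries the signal across the membrane, had the narrowest range of the 9 genes and was lower at P0 than at E13.5. The libraries held 229, 179 and 254 CPM at E13.5, 129, 177 and 196 CPM at E14.5, and 187, 176 and 179 CPM at E15.5. They held 155, 136 and 178 CPM at E16.5 and 143, 105 and 149 CPM at P0. Neighbouring stages overlapped throughout, but all P0 libraries stood below all E13.5 libraries. Between E13.5 and P0 Smo fell 1.67-fold (log2 -0.74, SE 0.18, adjusted p = 0.00475, edgeR), and the call held with each of the 6 libraries left out. Its call over all 5 stages was less firm and held in 8 of 15 fits with a library removed (adjusted p 0.0198 to 0.108). Libraries whose removal ended that call were E13.5 replicates 1 and 3, E15.5 replicates 2 and 3, E16.5 replicate 1 and P0 replicates 1 and 2. It was also lost with upper-quartile normalization (0.0781), with no filter on low counts (0.0525) and with a filter at a mean of 1 CPM (0.0597).

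Gli1, an activator and direct target whose transcript is widely read as a gauge of Hedgehog activity, showed no stage change past the test. The libraries held 101, 66.1 and 111 CPM at E13.5, 41.4, 76.9 and 60.0 CPM at E14.5, and 98.0, 82.3 and 95.9 CPM at E15.5. They held 37.7, 76.1 and 106 CPM at E16.5 and 47.2, 28.4 and 114 CPM at P0. The highest of all 15 libraries was P0 replicate 3 and the lowest was P0 replicate 2, so the range of P0 covered that of every other stage. The log2 fold change between E13.5 and P0 was -0.56 (adjusted p = 0.314, edgeR). Without P0 replicate 3 it was -1.28 and passed (adjusted p = 0.0196).

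Gli2, the main activator of the pathway in many mouse tissues, fell over the 5 stages. The libraries held 78.1, 66.4 and 87.8 CPM at E13.5, 41.1, 58.6 and 53.8 CPM at E14.5, and 49.2, 46.4 and 52.4 CPM at E15.5. They held 27.0, 30.8 and 43.4 CPM at E16.5 and 27.5, 25.2 and 36.4 CPM at P0. The ranges did not overlap between E13.5 and E14.5 or between E15.5 and E16.5, which are 2 of its 4 neighbouring pairs. The same held for 29.2% and 31.2% of all tested genes in these steps. Gli2 fell 2.61-fold between E13.5 and P0 (log2 -1.38, SE 0.20, adjusted p = 0.000126, edgeR).

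Gli3, which works mainly as a repressor when no ligand is present, fell furthest. The libraries held 111, 106 and 106 CPM at E13.5, 67.4, 70.2 and 73.4 CPM at E14.5, and 55.3, 61.7 and 58.2 CPM at E15.5. They held 20.1, 31.9 and 51.7 CPM at E16.5 and 20.02, 34.5 and 33.8 CPM at P0. The first 4 stages formed a descending series with no overlap between neighbours, and only E16.5 and P0 overlapped. Shares of all tested genes without overlap in the steps of this series were 29.2%, 51.3% and 31.2%. The 3 libraries of each stage lay close together up to E15.5 and spread out at E16.5, where replicate 1 was lowest and replicate 3 highest, as for Shh and Ptch1. Gli3 fell 3.66-fold between E13.5 and P0 (log2 -1.87, SE 0.28, adjusted p = 0.000146, edgeR). The falls of Gli2 and Gli3 over this interval and over the 5 stages held with each library left out.

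The ratio of Gli1 to Gli3, both per length, was nearly the same at E13.5 and E14.5, with stage means on the log2 scale of 0.69 ± 0.39 and 0.65 ± 0.42 (SD, n = 3). The mean was 1.59 ± 0.21 at E15.5 and 2.00 ± 0.17 at E16.5, and P0 had 1.84 ± 1.05 (SD, n = 3). All 6 libraries of E15.5 and E16.5 stood above all 6 of E13.5 and E14.5. At P0 the libraries were split, with replicate 2 at 0.66 and the others at 2.18 and 2.69. The difference between stages had p = 0.0356 in an exact permutation test and did not pass after adjustment over the 7 ratios examined (0.125). The ratio of Hhip to Ptch1, which are 2 ligand-binding targets of the pathway, was also lowest at E13.5 and E14.5 by its means, though the libraries of E16.5 overlapped with these. Its stage means were -3.05 ± 0.27, -2.87 ± 0.48, -1.78 ± 0.14, -2.14 ± 0.75 and -2.02 ± 0.21 from E13.5 to P0 (SD, n = 3), with an exact permutation p = 0.0198, adjusted 0.125. Foxf1 to Foxf2, Gli1 to Gli2, Ptch1 to Gli1 and Ptch1 to Smo had adjusted p of 0.936, 0.214, 0.400 and 0.936 by the same exact test.

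**Figure D2:**
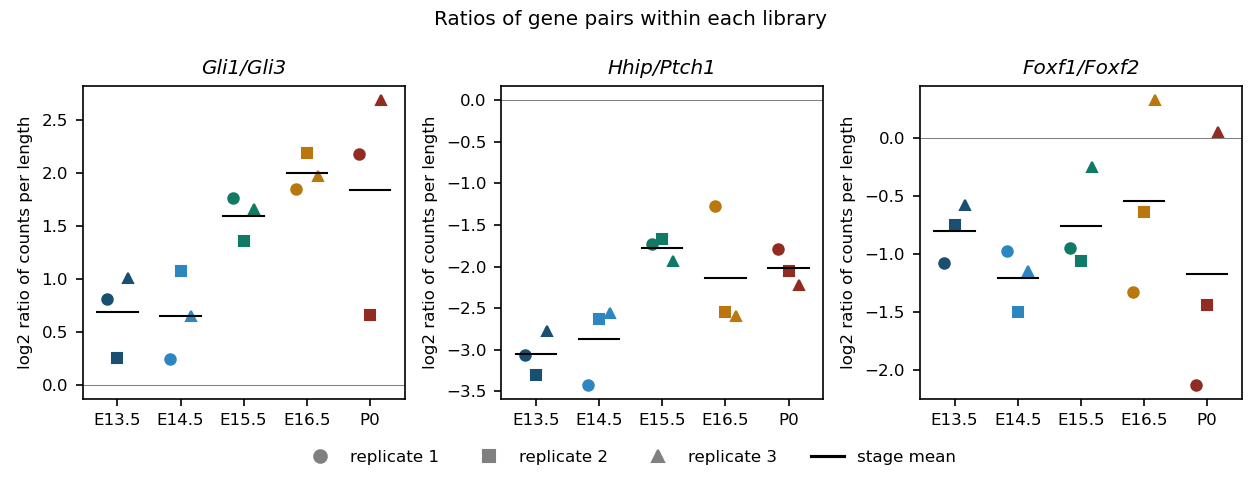
Log2 ratio of counts per length of 3 gene pairs in each library by stage, with a line at the stage mean and a grey line at equal levels. Gli1 to Gli3 moves from 0.24 to 1.07 in the libraries of E13.5 and E14.5 to 1.36 to 2.19 in those of E15.5 and E16.5, and the 3 P0 libraries span 0.66 to 2.69.

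Foxf1, a forkhead factor of mesenchyme that responds to Shh, varied more between pools than between stages. The libraries held 32.6, 13.2 and 26.1 CPM at E13.5, 12.99, 19.1 and 16.3 CPM at E14.5, and 7.31, 15.6 and 23.9 CPM at E15.5. They held 6.77, 10.1 and 30.0 CPM at E16.5 and 5.35, 6.401 and 26.1 CPM at P0. Replicate 3 was the highest library at E15.5, E16.5 and P0, as it was for Shh. The log2 fold change over the whole interval was -0.93 (adjusted p = 0.254, edgeR), and without P0 replicate 3 it was -2.001 and passed (adjusted p = 0.0235).

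Foxf2, its close relative, was also highest in replicate 3 at E16.5 and P0, with a smaller spread there, but not at E15.5. The libraries held 67.5, 21.7 and 38.1 CPM at E13.5, 25.0, 52.9 and 35.4 CPM at E14.5, and 13.8, 31.95 and 27.9 CPM at E15.5. They held 16.7, 15.3 and 23.5 CPM at E16.5 and 22.9, 17.01 and 24.6 CPM at P0. E16.5 and P0 spanned less than the earlier stages, and all neighbouring stages overlapped. From E13.5 to P0 the log2 fold change was -0.98 (adjusted p = 0.0586, edgeR). It passed in DESeq2 and without E13.5 replicate 2, the lowest library of that stage (log2 -1.30, adjusted p = 0.0172).

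Step by step, the calls among the 9 genes were few. Percentages of all genes are those of edgeR's adjusted calls, or of libraries without overlap where stated. Calls by DESeq2 and unadjusted p-values have no such share beside them. From E13.5 to E14.5, before and during the lifting of the palatal shelves, edgeR called 0 of the 9 genes, where 0.00903% of all tested genes passed, and DESeq2 also called 0. Without adjustment 2 had p under 0.05, Gli2 (log2 -0.60) and Gli3 (log2 -0.62), which were also the 2 whose libraries did not overlap, as for 29.2% of all genes. From E14.5 to E15.5 edgeR called 0 (background 26.1%) and DESeq2 1, with 1 at an unadjusted p under 0.05, in both cases Hhip. The libraries of Gli1, Gli3 and Hhip did not overlap in this step, as for 51.3% of all genes. From E15.5 to E16.5 edgeR called 0 (background 1.41%) and DESeq2 0, with Gli2 (log2 -0.55) and Gli3 (log2 -0.76) at an unadjusted p under 0.05. These were also the 2 genes whose libraries did not overlap, as for 31.2% of all genes. Gli3 passed that step without E16.5 replicate 3 (log2 -1.17, adjusted p = 0.0394). From E16.5 to P0 edgeR called 0, with 0 unadjusted, and DESeq2 0 (background 0.352%). In that last step the libraries did not overlap for 0 of the 9 genes, against 11.6% of all genes.

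Longer intervals held all the calls. From E13.5 to E15.5, 3 of the 9 genes passed, where 22.9% of all genes did. Hhip rose, as did 13.7% of all genes. Gli2 (log2 -0.65, SE 0.20, adjusted p = 0.0336) and Gli3 (log2 -0.89, SE 0.27, adjusted p = 0.0342) fell in edgeR's test, as did 9.18% of all genes. The libraries of these 3 genes did not overlap between the stages, as for 49% of all genes. Gli3 lost its call with any of the 6 libraries left out and Gli2 with any but E13.5 replicate 2, with adjusted p up to 0.0904 and 0.108. From E13.5 to P0, 3 of 9 passed, where 56.6% of all genes did, and all 3 fell, as did 26.8% of all genes. The median log2 fold change of the 9 genes over that interval was -0.74, against 0.03 over all tested genes. The libraries of Smo, Gli2 and Gli3 did not overlap between E13.5 and P0, as for 59.1% of all genes.

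The other Hedgehog pathway genes measured were 16 ligands, co-receptors and regulators, and 6 of them passed over the 5 stages, a smaller share than the 59.1% of all tested genes. From E13.5 to P0, 11 of 16 passed, where 56.6% of all genes did, 4 of them higher and 7 lower, with a median log2 fold change of -0.27 against 0.03 over all tested genes. The 2 other mammalian Hedgehog ligands rose. Ihh, known for its role in growing cartilage and bone, rose from 1.20 ± 0.42 CPM at E13.5 to 4.68 ± 2.34 CPM at P0 (SD, n = 3, log2 1.96, adjusted p = 0.00173, edgeR). Dhh, known from peripheral nerve sheaths, rose from 1.95 ± 0.56 to 13.4 ± 10.6 CPM (log2 2.79, adjusted p = 0.00130). Both had already passed from E14.5 to E15.5 (log2 1.52 and 1.95), the step in which Hhip separated from its earlier libraries.

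Among the regulators, Gpr161, a receptor that holds the pathway off in the primary cilium, fell from 89.8 ± 17.9 to 25.1 ± 1.88 CPM between E13.5 and P0 (SD, n = 3, log2 -1.84, adjusted p = 0.000167, edgeR). Sufu, which restrains Gli proteins, fell from 81.1 ± 5.42 to 42.5 ± 6.07 CPM (log2 -0.93, adjusted p = 5.8e-05), and the co-receptor gene Cdon fell from 142 ± 20.5 to 65.3 ± 19.02 CPM (log2 -1.12, adjusted p = 0.00156). Spop, a ubiquitin ligase adaptor that targets Gli proteins, rose from 109 ± 1.68 to 172 ± 29.7 CPM (log2 0.66, adjusted p = 0.000643). Gpr161 fell between E14.5 and E15.5 (log2 -1.65, adjusted p = 0.00221), when Gli2 and Smo differed by -0.05 and 0.11 on the log2 scale and did not pass. Neural markers, summed over 6 genes, were also higher at E14.5 (4811, 3271 and 2122 CPM) than at E15.5 (1559, 955 and 768 CPM), and within E14.5 they ran in the order of Gpr161 (163, 116.5 and 91.1 CPM). They held 1483, 2695 and 761 CPM at E13.5, beside 93.1, 106 and 70.5 CPM of Gpr161, and 719 to 1333 CPM at P0. The part of neural tissue in the fall of Gpr161 was not tested.

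**Figure D3:**
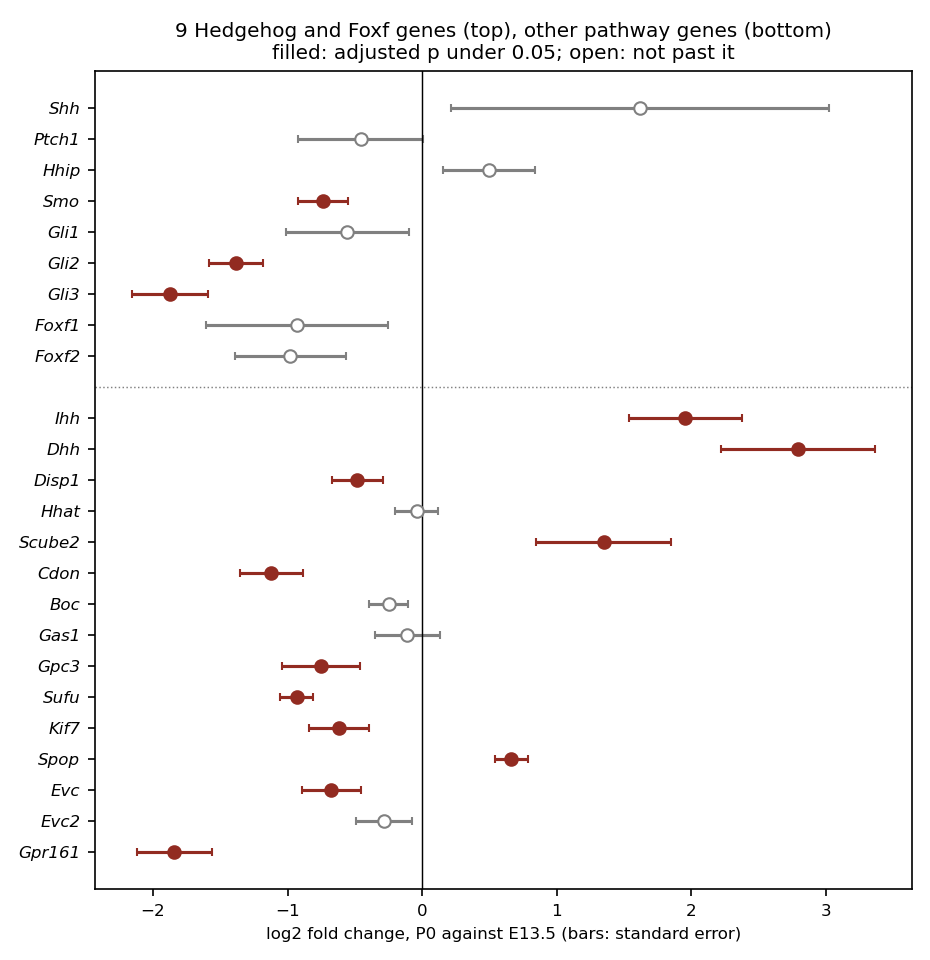
Log2 fold change from E13.5 to P0 (bars, standard error, edgeR) of the 9 genes and of 15 of the 16 other Hedgehog pathway genes, filled where the adjusted p is under 0.05. Smo, Gli2 and Gli3 lie left of 0 with filled points at -0.74, -1.38 and -1.87, and Dhh lies farthest right at 2.79.

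Genes placed near Shh and the Foxf factors in palate growth were counted in the same way. Of 7 forkhead genes of neural crest mesenchyme, a list that includes Foxf1 and Foxf2, 4 passed from E13.5 to P0, a share close to the 56.6% of all tested genes. All 4 were lower and none was Foxf1 or Foxf2, and the median log2 fold change of the 7 was -1.16 against 0.03 over all tested genes. Among the 4 Foxc1 fell from 48.9 ± 11.2 to 21.9 ± 2.00 CPM (SD, n = 3, log2 -1.16) and Foxl1 from 7.01 ± 4.16 to 2.19 ± 1.06 CPM (log2 -1.67). Of 4 fibroblast growth factor and receptor genes linked to Shh between palatal epithelium and mesenchyme, 2 passed from E13.5 to P0. This share was close to the 56.6% of all tested genes, and the 2 went in opposite directions. Fgf10, a mesenchymal factor known to sustain Shh in the epithelium, fell (log2 -1.14, adjusted p = 0.0115, edgeR), and Fgf7 rose (log2 1.41, adjusted p = 0.0133).

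At E16.5 and P0, where the spread of Shh was large, pools high in Shh for their stage were also high in most of the other genes. Each library was expressed as its deviation in log2 CPM from the mean of its stage. In the 6 libraries of E16.5 and P0, where Shh deviations ran from -3.46 to 3.74, Pearson's r with Shh was 0.95 for Ptch1, 0.96 for Gli1, 0.96 for Hhip and 0.95 for Foxf1. Spearman's rho was 0.89, 0.94, 0.89 and 0.94 for these 4 genes. In the same 6 libraries r was 0.95 for Gli2, 0.74 for Gli3, 0.68 for Foxf2 and 0.54 for Smo. In the 9 libraries of E13.5 to E15.5 Shh deviations ran from -0.91 to 1.05. There r was 0.44 for Ptch1 and 0.56 for Foxf1 but -0.10 for Gli1 and -0.02 for Hhip. It was 0.38 for Foxf2, 0.24 for Gli3, -0.02 for Gli2 and -0.30 for Smo. The likeness therefore rests on the last 2 stages. Over all 15 libraries r was 0.91 for Ptch1 (rho 0.83), 0.84 for Foxf1 (rho 0.74) and 0.83 for Gli1 (rho 0.66). Leaving out P0 replicate 3 and E16.5 replicate 1, the libraries farthest from the median of Shh, gave 0.86, 0.76 and 0.66. That still kept E16.5 replicate 3, with a Shh deviation of 2.95, and P0 replicates 1 and 2, with -1.63 and -2.11. Over the 15 libraries Foxf2 (r = 0.31) and Smo (r = 0.28) followed Shh least of the 9 genes.

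These correlations are descriptions of pools that share depth and tissue composition, and other genes followed the same libraries. By deviations over all 15 libraries Ptch1 ranked 102 among the 22151 tested genes most like Shh. Foxf1 ranked 458, Gli1 540, Gli2 1533 (r = 0.725), Gli3 1572 (r = 0.721) and Hhip 1879 (r = 0.693). Foxf2 ranked 6894 and Smo 7364. No ranks were computed for the 6 libraries of E16.5 and P0 alone. Krt5 had r = 0.98 with Shh in the last 6 libraries and 0.75 over all 15, and the proliferation gene Top2a had 0.92 over all 15. Epcam had 0.05, the muscle gene Des -0.81 and the endothelial gene Pecam1 -0.83. The part of these cell types in the likeness was not tested.

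**Figure D4:**
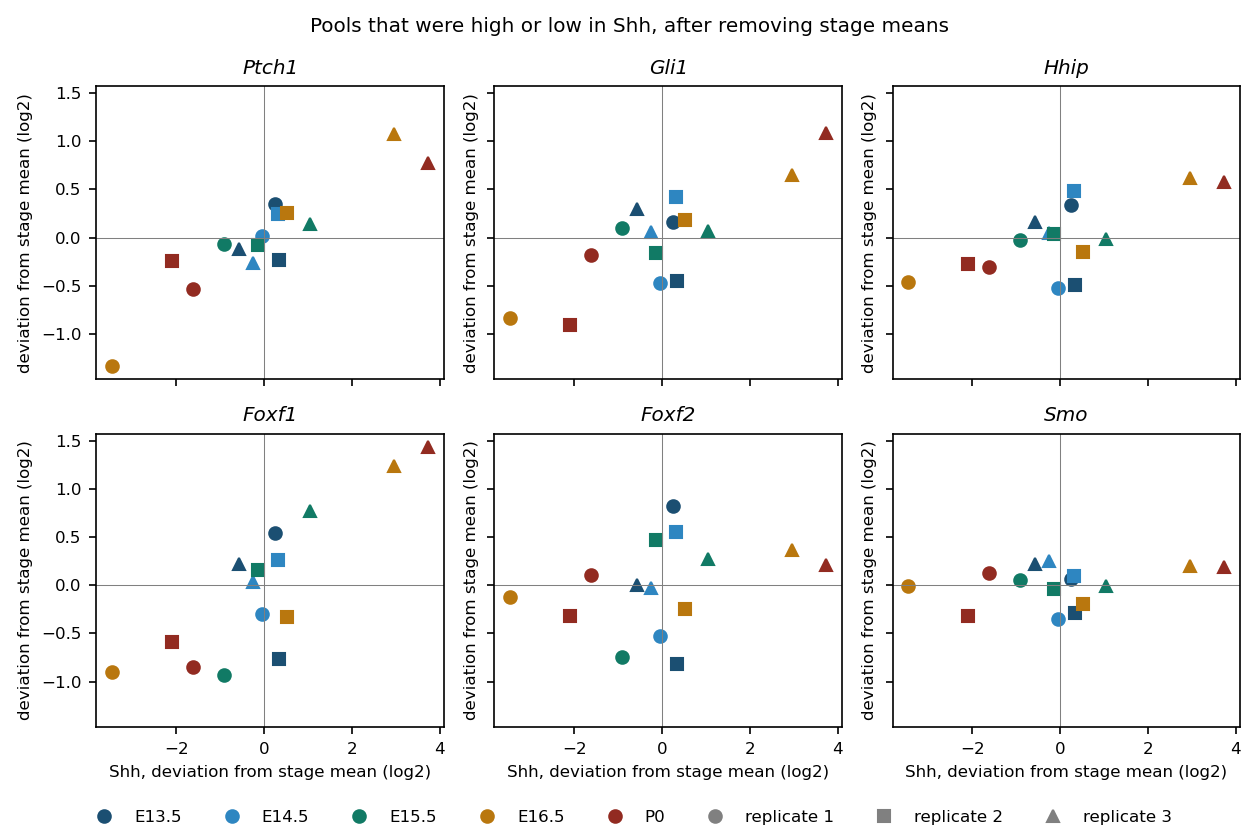
Deviation of 6 genes from their stage mean against that of Shh (both in log2 CPM), with 1 point per library, colours for stages and shapes for replicates. Ptch1 and Foxf1 follow Shh across 15 libraries with r of 0.91 and 0.84, and Smo and Foxf2 with 0.28 and 0.31.

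Within the 9 genes the closest pair by deviations was Hhip and Gli2 (r = 0.93, rho 0.94 over 15 libraries, 0.89 without E16.5 replicate 3 and P0 replicate 3), and Gli2 ranked first of all tested genes for Hhip. Shh with Ptch1 and Gli1 with Gli2 each had r = 0.91. Across stages these genes went different ways, since Gli2 fell from E13.5 to E15.5 and Hhip rose. Gli3 shared less with Gli1 and Gli2 between pools (r = 0.49 and 0.59, or 0.12 and 0.20 without E16.5 replicates 1 and 3).

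The genes most like each of the 9 in log2 CPM over the 15 libraries fell into different kinds. For Gli3 they were Atad5, Usp37 and Blm (r = 0.99, 0.98 and 0.98), and for Gli2 they were Mcm5, Nsl1 and Mcm10 (r = 0.98 for each), most of them genes of DNA replication and cell division. Cell cycle markers, summed over 8 genes, held 1671 to 1858 CPM at E13.5 and 590 to 974 CPM at P0, and 7 of the 8 fell between these stages. The part of cell division in the fall of Gli2 and Gli3 was not tested. For Shh they were Foxi3, Cyp26a1 and Vwa2 (r = 0.94, 0.93 and 0.93), and Cyp26a1, which degrades retinoic acid, was also among the closest 3 for Ptch1 (r = 0.90), with the predicted genes Gm43428 and Gm14393. Shh itself ranked 6 for Ptch1, and Ptch1 ranked 16 for Shh.

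For Foxf1 the most similar gene was Fendrr, the long noncoding RNA transcribed next to it (r = 0.93, rho 0.96), followed by 4930579F01Rik and the palatal mesenchyme factor Msx1. For Gli1 they were Lcat, Mkx and Kif7 (r = 0.94, 0.91 and 0.90), and Kif7, a kinesin that regulates Gli proteins in the cilium, ranked first by deviations from stage means (r = 0.98). For Smo they were Six5, Nfatc4 and Mbtps1 (r = 0.95, 0.95 and 0.94), and for Hhip Btbd19, Slc39a14 and Ptprv (r = 0.87, 0.86 and 0.86). For Foxf2 they were Gm48662, Col23a1 and 1700018A04Rik (r = 0.88, 0.84 and 0.81).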

How the data were processed

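Bulk RNA-seq of 15 palate libraries (5 stages, 3 each) was analysed from 1 deposited table of raw counts per gene. The authors made these counts with featureCounts 2.0.1, per the file headers, counting read pairs on the reverse strand of GENCODE M18 from adapter-trimmed, duplicate-marked alignments. The submitters' processing notes name mm10, cutadapt 3.4, HISAT2 2.2.1, Bowtie2, SAMtools 1.12, FastQC 0.11.9 and Subread 2.0.1, with no role for each. Positions were those of the deposited table, and 54079 of its genes were matched to a symbol. GENCODE M21 served for gene types and exon overlap, and 97.7% of the genes found in it had an identical position.

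edgeR's filterByExpr (minimum count 10) kept 22151 genes. Counts were normalized with TMM and modelled with edgeR 4.0.16 in R 4.3.3, using all 15 libraries and a mean for each stage. Stages were compared with the quasi-likelihood F test, with p-values adjusted by Benjamini-Hochberg over all tested genes at a threshold of 0.05. The common biological coefficient of variation was 0.332. CPM are TMM-scaled, TPM use the table's gene lengths, and correlations use log2 CPM with a prior count of 2. Ratios of genes were tested by exact permutation of libraries. The floor of 3 counts covers counting error only. The procedure was tested on simulated data.

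Alternatives were DESeq2 1.42.0, other size factors, other filters, a replicate block, single contrasts alone and leaving out libraries. The removal of E14.5 replicates 1 and 3 together was chosen after seeing the data. The 9 genes and the gene lists were chosen with earlier results of these data known. All 9 genes were named. Of the 3 other gene lists, genes past the 5-stage test were named and the rest counted (1 gene is counted but not reported here), and the 3 genes most correlated with each of the 9 were named. Genes singled out beside Shh, namely Krt5, Epcam, Top2a, Des and Pecam1, were picked after their values were seen. RefSeq promoter windows were trimmed to their 250 upstream bases.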

Additional observations from a re-analysis of the deposited data

How the results depend on the processing

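Over the 5 stages DESeq2 called 5 of the 9 genes in place of 3, and leaving out single libraries gave 2 to 5. The shares of all genes called under these alternatives are not given here. From E14.5 to E15.5 DESeq2 and a fit of the 6 libraries alone called 1 in place of 0. From E13.5 to E15.5 upper-quartile normalization and no filter on low counts called 1 in place of 3, and leaving out single libraries 0 to 1. That range was 0 to 1 from E15.5 to E16.5 and 3 to 5 from E13.5 to P0. The other Hedgehog genes gave 6 to 8 calls over the 5 stages under every alternative run. Of the single-gene and ratio values, 985 were labelled unchanged, 13 gained a call, 32 lost one and 0 reversed a call. For ratios with a library left out no test was run. There, unchanged meant that the range of stage means moved by less than the pooled SD within stages. The cause was not tested.

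Most pairs of libraries with the same replicate number were little alike over all genes. Of 30 such pairs, 9 had a correlation of deviations over 0.1 (range -0.30 to 0.55, mean 0.059). Pairs with different numbers had a mean of -0.032. Some genes did follow the number, since the 9 epithelial markers summed highest in replicate 3 at every stage. Krt5 rose from replicate 1 to replicate 3 at every stage. Whether the numbers mark a shared factor was not tested. With the replicate block 3 genes passed over the 5 stages, as without it, and the counts of the 6 contrasts were also the same. The uncalled difference of Shh from E13.5 to P0 was -0.26 on the log2 scale with the block.

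With 3 pools a stage, a difference as uncertain as that of Shh (SE 1.41 on the log2 scale) could not be resolved. Its lowest library held 31 counts.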
